A study of Mus musculus with 8 samples.

Results

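The subunits of respiratory complex I that the nuclear genome encodes were compared between donor CD4+ T cells without and with ST2, the receptor for the alarmin IL-33. Members were all genes of the expression table whose symbol starts with Nduf, leaving out the assembly factors whose symbol starts with Ndufaf, which gave 37 of 12417 entries. By their symbols these were 14 Ndufa subunits (with *Ndufab1*), 10 Ndufb, 2 Ndufc, 8 Ndufs and 3 Ndufv subunits. This rule reads symbols and no measured value, but it was set with earlier results of these data known.

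RNA-Seq was performed on donor CD4+ T cells sorted from the spleens of 4 lethally irradiated female BALB/c recipients on d5 after allogeneic hematopoietic cell transplantation (alloHCT), with 1 ST2fl/fl and 1 ST2WT library per recipient. ST2fl/fl cells came from B6 CD45.2+ mice of the genotype *CD4-Cre*, *R26-LSL-YFP*, *St2fl/fl*, in which Cre under the *Cd4* promoter acts from the double-positive thymocyte stage, removes the floxed part of *Il1rl1*, which encodes ST2, and switches on a YFP reporter. ST2WT cells came from B6 CD45.1+ mice with *St2+/+* and carried neither Cre nor the reporter, so that the genotypes also differed in these alleles and in the CD45 allele. Both populations were cotransferred into the same irradiated recipient, which had also received T cell-depleted bone marrow, and the mice were 6 to 10 weeks old when the experiments began. The labels name no recipient, and equal library numbers were read as a shared recipient. Values are TPM, the share of a library's transcripts after division of reads by transcript length.

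Complex I oxidizes NADH from the tricarboxylic acid cycle, passes the electrons along iron-sulfur clusters to ubiquinone and pumps protons across the inner mitochondrial membrane. Its catalytic core consists of 7 nuclear-encoded subunits in the arm that reaches into the matrix (*Ndufv1*, *Ndufv2*, *Ndufs1* and *Ndufs7* among them) and 7 mitochondrially encoded subunits in the membrane arm. The other members are counted here as accessory subunits, which are needed to assemble and hold the complex, and *Ndufa4* is counted with them by its symbol alone. T cells that leave quiescence after antigen encounter enlarge their mitochondria and raise respiration together with glycolysis, and complex I regenerates the NAD+ that this growth uses.

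Promoter sequences are shown for members on which the results below turn, and for those that share a letter string near the start of the gene. RefSeq windows on GRCm38.p6, which span 250 bases before to 50 bases after the gene start, were at hand for 33 of 37 members (not for *Ndufa2*, *Ndufb9* and *Ndufs1*, among others). The letters AAGATGGCG, which hold the core of the YY1 motif, were searched on both strands and stood in the windows of 5 members (15.2%), against 1.64% of all 27025 genes with a window and 4.38% of the 7611 such genes that were tested. In all 5 they lay on the gene's own strand and began 22 to 35 bases after the start. The string holds the letters ATG of a start codon. Whether it marks the start of translation in these genes, rather than a site in the promoter, was not tested. The last 100 bases of these windows are printed 5′ to 3′ with the AAGATGGCG in capitals.
*Ndufa9* (chr6:126849095-126849194, minus strand): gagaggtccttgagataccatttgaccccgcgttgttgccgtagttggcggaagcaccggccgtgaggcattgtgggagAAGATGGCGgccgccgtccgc
*Ndufc1* (chr3:51408906-51409005, minus strand): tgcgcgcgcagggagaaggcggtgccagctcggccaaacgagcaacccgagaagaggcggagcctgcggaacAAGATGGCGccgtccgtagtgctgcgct
*Ndufs4* (chr13:114388045-114388144, minus strand): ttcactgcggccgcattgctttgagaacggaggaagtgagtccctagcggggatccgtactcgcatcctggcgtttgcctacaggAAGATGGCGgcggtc
*Ndufs6* (chr13:73328433-73328532, minus strand): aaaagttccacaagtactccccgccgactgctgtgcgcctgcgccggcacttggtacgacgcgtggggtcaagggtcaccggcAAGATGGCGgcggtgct
*Ndufs7* (chr10:80249399-80249498, plus strand): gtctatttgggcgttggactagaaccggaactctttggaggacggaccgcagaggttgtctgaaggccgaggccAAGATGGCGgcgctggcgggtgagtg

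The whole windows of *Ndufb6* and *Ndufc2* follow, since these members and *Ndufc1* had the smallest p-values. Capitals in *Ndufb6*, which also holds the Sp1 string described below, mark CTTCCGG, the reverse complement of CCGGAAG, a string with the core of the ETS motif, which the GA-binding protein reads. It stood in the windows of 4 members (*Ndufb6*, *Ndufb7*, *Ndufs3* and *Ndufs8*; 12.1%), against 9.93% of all genes with a window and 23.7% of those tested. The window of *Ndufc2* held none of the strings searched.
*Ndufb6* (chr4:40279372-40279671, minus strand): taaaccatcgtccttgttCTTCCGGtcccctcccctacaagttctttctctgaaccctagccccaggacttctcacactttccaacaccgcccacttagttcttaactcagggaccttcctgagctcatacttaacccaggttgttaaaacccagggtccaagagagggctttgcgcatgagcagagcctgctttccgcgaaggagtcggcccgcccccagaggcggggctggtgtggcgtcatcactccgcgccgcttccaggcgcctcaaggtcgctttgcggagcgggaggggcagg
*Ndufc2* (chr7:97399753-97400052, plus strand): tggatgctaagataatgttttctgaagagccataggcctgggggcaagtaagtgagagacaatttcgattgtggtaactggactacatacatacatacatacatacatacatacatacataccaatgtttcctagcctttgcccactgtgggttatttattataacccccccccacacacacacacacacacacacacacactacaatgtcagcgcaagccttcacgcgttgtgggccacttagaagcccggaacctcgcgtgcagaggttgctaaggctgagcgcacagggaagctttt

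The palindromic consensus of the NRF1 motif stood in the window of *Ndufa11* alone, against 1.07% of all genes with a window and 2.75% of those tested. The Sp1 string GGGCGG stood in a window of 15 of the 33 members (45.5%), against 38.2% of all genes with a window and 69.29% of those tested. None of the 4 strings contains another, and a match to letters is not a measured binding site.

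All 37 members had values above 0 in every library. The table holds no entry at 0 in any library, so this is true of every entry and does not set the members apart. The libraries sum to 999334 to 999527 TPM, and read totals cannot be had from TPM, so that counting error is unknown. *Il1rl1* was listed at 15.8, 14.95, 16.7 and 17.65 TPM in ST2fl/fl libraries, against 18.65, 14.6, 21.3 and 18.2 TPM in ST2WT libraries (limma log2 fold change -0.14, SE 0.12, adjusted p = 0.608), and since whole-gene TPM also hold exons outside the floxed part, this level cannot show whether the labels are right. At the locus of the *R26* reporter allele, which ST2fl/fl cells alone carry, *Gt(ROSA)26Sor* had 30.6, 37.5, 40.7 and 38.7 TPM in ST2fl/fl libraries, against 107.8, 92.1, 106.3 and 99.6 TPM in ST2WT libraries, so that it separated the libraries by their genotype label (limma log2 fold change -1.44, SE 0.11, adjusted p = 9.455e-05). All 8 CD4+ T cell markers were present and summed to 12800 to 13000 TPM in ST2fl/fl libraries and 11000 to 11900 TPM in ST2WT libraries. Of 6 B cell markers, 3 (*Cd79b*, *Igkc* and *Ighm*) had values, while the defining *Ms4a1* and *Cd79a* had none to analyse here, and these 3 summed to 192 to 263 TPM in ST2fl/fl libraries and 283 to 294 TPM in ST2WT libraries. Of 6 myeloid, 3 NK, 2 CD8, 3 γδ T cell and 4 erythroid markers, 2, 2, 1, 3 and 2 were found, and each of these sums was at most 97.5 TPM in every library, the γδ T cell sum being 51.8 to 97.5 TPM in ST2fl/fl libraries and 27.4 to 67.6 TPM in ST2WT libraries. The B cell sum, most of it *Ighm* (means of 214.7 TPM in ST2fl/fl cells and 265.9 TPM in ST2WT cells), was lower in ST2fl/fl cells, as most members were. *Cd79b* was lower too, whereas *Igkc* was higher by its mean (20.24 ± 9.742 TPM in ST2fl/fl cells and 13.45 ± 5.308 TPM in ST2WT cells). The CD4+ T cell sum was higher, and the part of these markers in the differences below was not tested. In bulk RNA, a smaller share of cells with a transcript and less of it per cell cannot be told apart.

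The ST2WT library of recipient 2 stood apart from the rest. Each library was set, gene by gene, against the mean of the remaining libraries of its own genotype. The SD of these deviations was 0.465 on the log2 scale in this library, against 0.242 to 0.279 in the other 7. Mitochondrially encoded genes took 9.18% of its TPM, against 12.7% to 13.8% in the others. It held the highest value of 16 members and the lowest of 9. Results that rest on it are therefore also given without it.

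The first question was how abundant each subunit transcript was in these cells. *Ndufa1*, a small X-linked subunit that spans the membrane at the junction of the arms, had the highest mean (2472 TPM), followed by *Ndufb9* (1197 TPM) and *Ndufa2* (1145 TPM). The lowest means were those of *Ndufs1* (37.5 TPM), *Ndufv1* (54.5 TPM) and *Ndufb2* (60.1 TPM). *Ndufs1* and *Ndufv1* are catalytic core subunits, and *Ndufs3* (90.0 TPM) lay in the same low range. The core subunits *Ndufs8* (628 TPM) and *Ndufv2* (493 TPM) lay far above them, so that the mRNAs of subunits that stand at 1 copy each in the complex were spread over more than an order of magnitude. The libraries of a genotype differed far less than the genes did, and neighbours in this order such as *Ndufb11* and *Ndufs5* overlapped between libraries. *Ndufb11* ran over 598 to 641.5 TPM in ST2fl/fl libraries and 616 to 658 TPM in ST2WT libraries, and *Ndufs5* over 566.5 to 602.5 TPM in ST2fl/fl libraries and 597 to 655 TPM in ST2WT libraries. *Ndufb2*, near the low end, ran over 53.8 to 61.01 TPM in ST2fl/fl libraries and 62.2 to 66.45 TPM in ST2WT libraries.

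**Figure D1:**
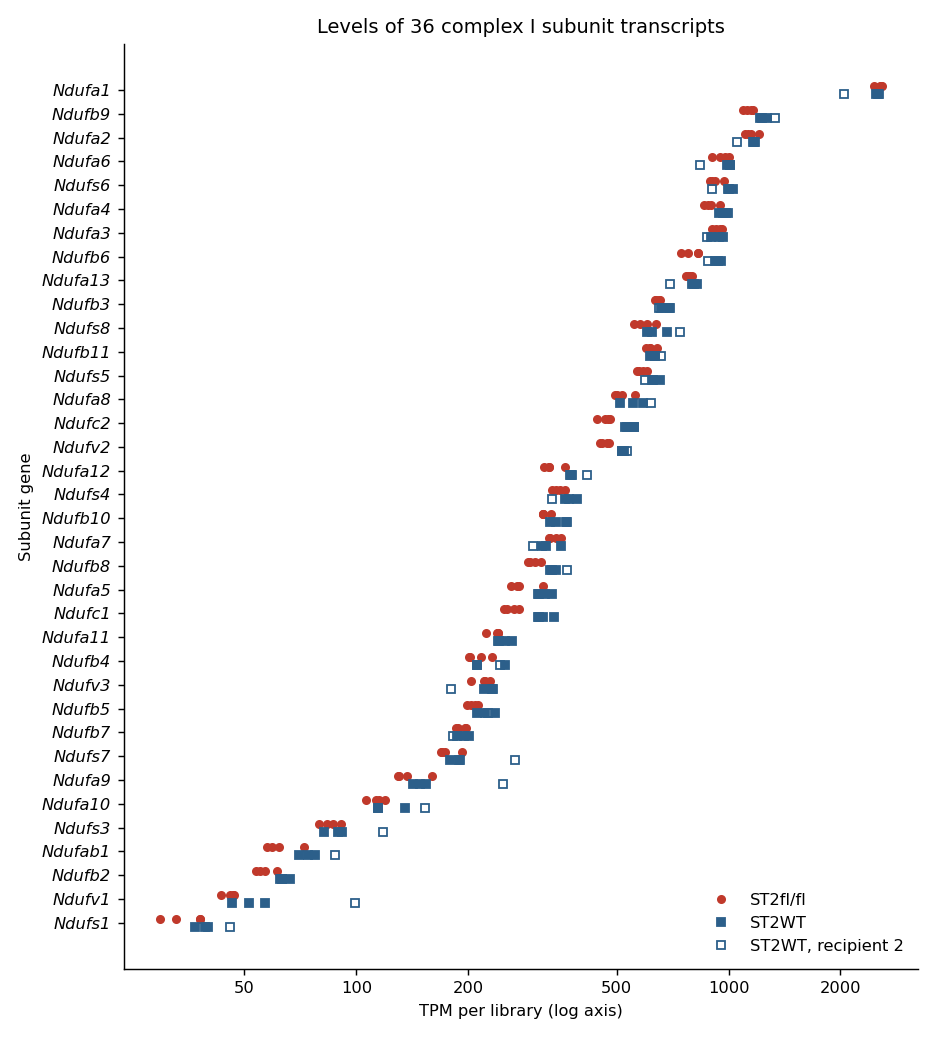
TPM of 36 of the 37 complex I subunit transcripts in each library on a log axis, with ST2fl/fl and ST2WT libraries in separate colors and the ST2WT library of recipient 2 as open squares. The mean levels run from 37.5 TPM (*Ndufs1*) to 2472 TPM (*Ndufa1*), and the points of a gene lie close together, except where the open square stands apart, as at *Ndufv1* (98.9 TPM).

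The main question was whether ST2 deletion changed these transcripts. No member passed the limits of an adjusted p under 0.05 and a change over 1.5-fold in limma (of all 10238 genes tested, 0.244% passed as lower and 0.273% as higher in ST2fl/fl cells). Most members were slightly lower in ST2fl/fl cells: 30 of 37 had a log2 fold change below 0, which is 81.1% against 48.3% of all genes tested, and 22 were lower in ST2fl/fl cells of all 4 recipients, which is 59.5% against 14.6%. The median log2 fold change of the members was -0.13 (-8.78%), against 0.01 over all genes, and single members lay between -0.40 and 0.09 with SEs of 0.05 to 0.20. At an unadjusted p under 0.05, 9 members were lower (24.3%, against 6.8% of all genes) and 0 higher (7.11% of all genes). At an adjusted p under 0.05 with no limit on the change there were 0 members in either direction (0.273% of all genes lower and 0.332% higher), and the smallest adjusted p was 0.106.

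In 9 members every ST2fl/fl library lay below every ST2WT library (24.3%, against 4.58% of all genes), and in 0 members every ST2fl/fl library lay above (5.45% of all genes). Among them were *Ndufa12*, *Ndufb2*, *Ndufb6*, *Ndufb8*, *Ndufb9*, *Ndufc1*, *Ndufc2* and *Ndufv2*. Such a separation gives a two-sided exact permutation p of 0.0286, the smallest that 70 labelings of 4 against 4 allow. These labelings exchange libraries across recipients and ignore the pairing, and swaps within the 4 recipients allow 16 labelings and no two-sided p under 0.125. The direction of the weakest members moved with the scaling: 26 were lower and 11 higher after quantile normalization of the libraries, where the median was -0.07, and 33 were lower and 4 higher with median-of-ratios scaling, where it was -0.14. Quantile normalization also left 3 members without overlap (4.62% of all genes) and 6 lower at an unadjusted p under 0.05 (7.37% of all genes).

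Leaving out the ST2WT library of recipient 2 changed the calls. Then 35 members were lower and 2 higher, 14 were lower at an unadjusted p under 0.05 (against 7.71% of 10263 genes) and in 15 the groups did not overlap (against 6.89%). *Ndufc1* (log2 fold change -0.30, adjusted p = 0.0265), *Ndufb6* (-0.24, adjusted p = 0.0371) and *Ndufc2* (-0.21, adjusted p = 0.0495) passed an adjusted p under 0.05 in limma, against 1% of all genes in that direction, and none of them a change over 1.5-fold. The recipient as a block brought 15 members to an unadjusted p under 0.05 (against 10.3% of all genes) and 0 to an adjusted one, with the smallest adjusted p at 0.0782 (*Ndufc1*).

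**Figure D2:**
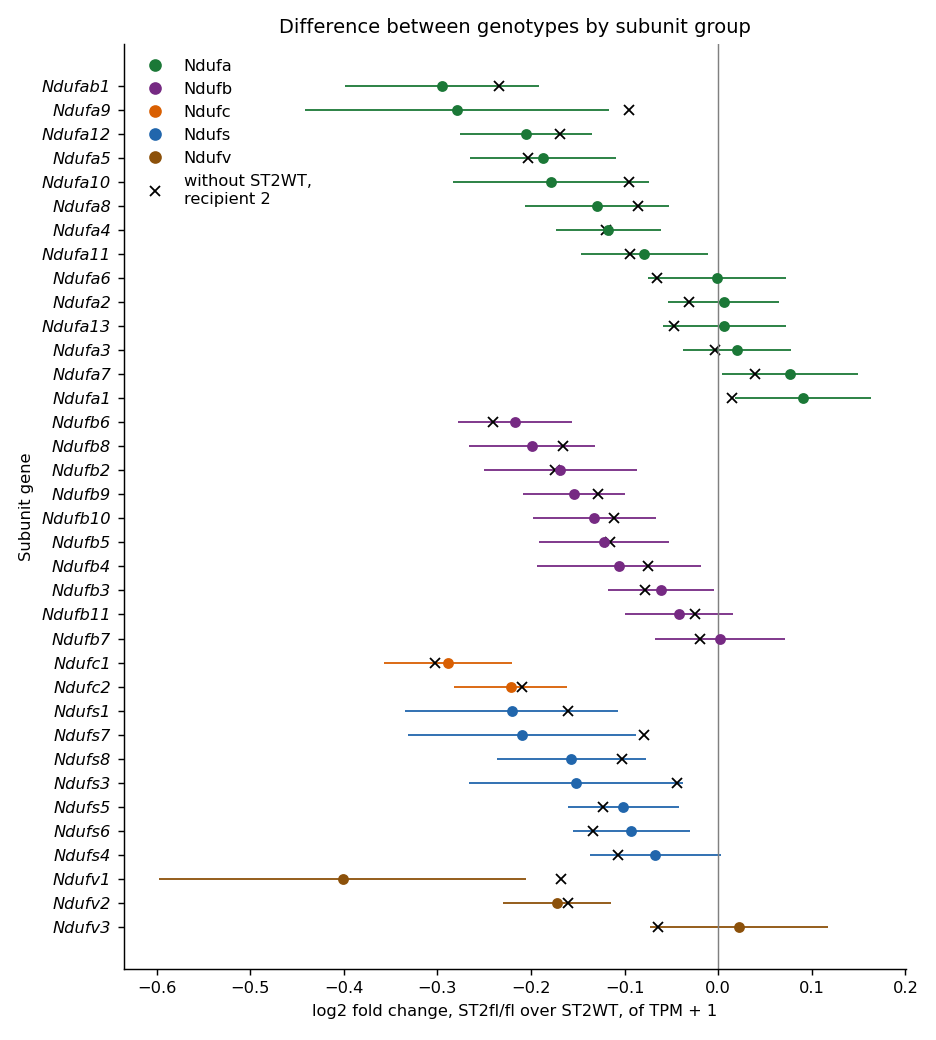
Log2 fold change of TPM + 1, ST2fl/fl over ST2WT, for 36 of the 37 members by subunit group, with bars of 1 SE from limma and crosses for the value without the ST2WT library of recipient 2. Points left of 0 are lower in ST2fl/fl cells, which holds for 30 of all 37 members with all libraries and for 35 without that library, and the crosses of *Ndufv1*, *Ndufa9* and *Ndufs7* lie well to the right of their points.

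The 2 Ndufc subunits sit in the membrane arm, beside the part built around the mitochondrially encoded ND2, and both separated the genotypes. *Ndufc1*, one of the smallest proteins of the complex, lies on chr3:51404677-51408988 and had 253, 273, 265 and 249.7 TPM in the ST2fl/fl libraries of recipients 1, 2, 3 and 4, against 339, 309, 317 and 308 TPM in their ST2WT libraries. Every ST2fl/fl library lay below every ST2WT library, and the gap between the groups exceeded the spread within either one. Its means were 260.3 ± 10.96 TPM in ST2fl/fl cells and 318 ± 14.4 TPM in ST2WT cells (SD, n = 4 each, limma log2 fold change -0.29, SE 0.07, adjusted p = 0.106, 95% interval -0.44 to -0.14; two-sided exact permutation p = 0.0286). *Ndufc2* had 466, 480.0, 475 and 443 TPM in ST2fl/fl libraries, against 527, 558, 556 and 535 TPM in ST2WT libraries, in the same order of recipients. The groups did not overlap here either, with means of 466 ± 16.3 TPM in ST2fl/fl cells and 544 ± 15.4 TPM in ST2WT cells (SD, n = 4 each, limma log2 fold change -0.22, SE 0.06, adjusted p = 0.153, 95% interval -0.35 to -0.09), and the log2 fold change was -0.11 (adjusted p = 0.423) after quantile normalization. The median of both was -0.26 on the log2 scale (-16.2%).

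The 10 Ndufb subunits build the far end of the membrane arm, around the mitochondrially encoded ND4 and ND5. Of them, 9 were lower and 1 higher by sign (90% lower, against 48.3% of all genes), with a median of -0.13 (-8.45%). In limma, 3 were lower at an unadjusted p under 0.05 (30%, against 6.8% of all genes). In 4 the groups did not overlap (40%, against 4.58%). *Ndufb6* had 744, 830.1, 827 and 777 TPM in ST2fl/fl libraries, against 953, 879, 939 and 922 TPM in ST2WT libraries. The highest ST2fl/fl library lay below the lowest ST2WT library, and the means were 795 ± 41.5 TPM in ST2fl/fl cells and 923 ± 32.15 TPM in ST2WT cells (SD, n = 4 each, limma log2 fold change -0.22, SE 0.06, adjusted p = 0.167; two-sided exact permutation p = 0.0286). *Ndufb8*, whose protein is widely used as a sign of assembled complex I, had 289, 314, 302 and 293 TPM in ST2fl/fl libraries, against 330.4, 368, 334 and 343 TPM in ST2WT libraries. The groups again did not overlap, at 299 ± 11.02 TPM in ST2fl/fl cells and 344 ± 16.85 TPM in ST2WT cells (SD, n = 4 each, limma log2 fold change -0.20, SE 0.07, adjusted p = 0.245), though exons of *Gm20538* overlap it on the same strand and may share its reads.

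*Ndufb9*, a protein of the LYR family that binds the acyl carrier protein *Ndufab1*, was the second most abundant member, with 1094, 1163, 1152 and 1123 TPM in ST2fl/fl libraries, against 1232, 1330, 1215 and 1269 TPM in ST2WT libraries. Its groups did not overlap and averaged 1133 ± 31.1 TPM in ST2fl/fl cells and 1261 ± 50.8 TPM in ST2WT cells (SD, n = 4 each, limma log2 fold change -0.15, SE 0.05, adjusted p = 0.262), and exons of *Gm49356* overlap it on the same strand. *Ndufb2*, whose range is given above, did not overlap (limma log2 fold change -0.17, SE 0.08, adjusted p = 0.381), and *Gm42420* overlaps it on the same strand. The remaining 6 (*Ndufb10*, *Ndufb5*, *Ndufb4*, *Ndufb3*, *Ndufb11* and *Ndufb7*) had log2 fold changes of -0.13 to 0.00, and in each of them the ranges of the genotypes overlapped. *Ndufb7* and *Ndufb10* belong to the twin-cysteine proteins on the intermembrane side.

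**Figure D3:**
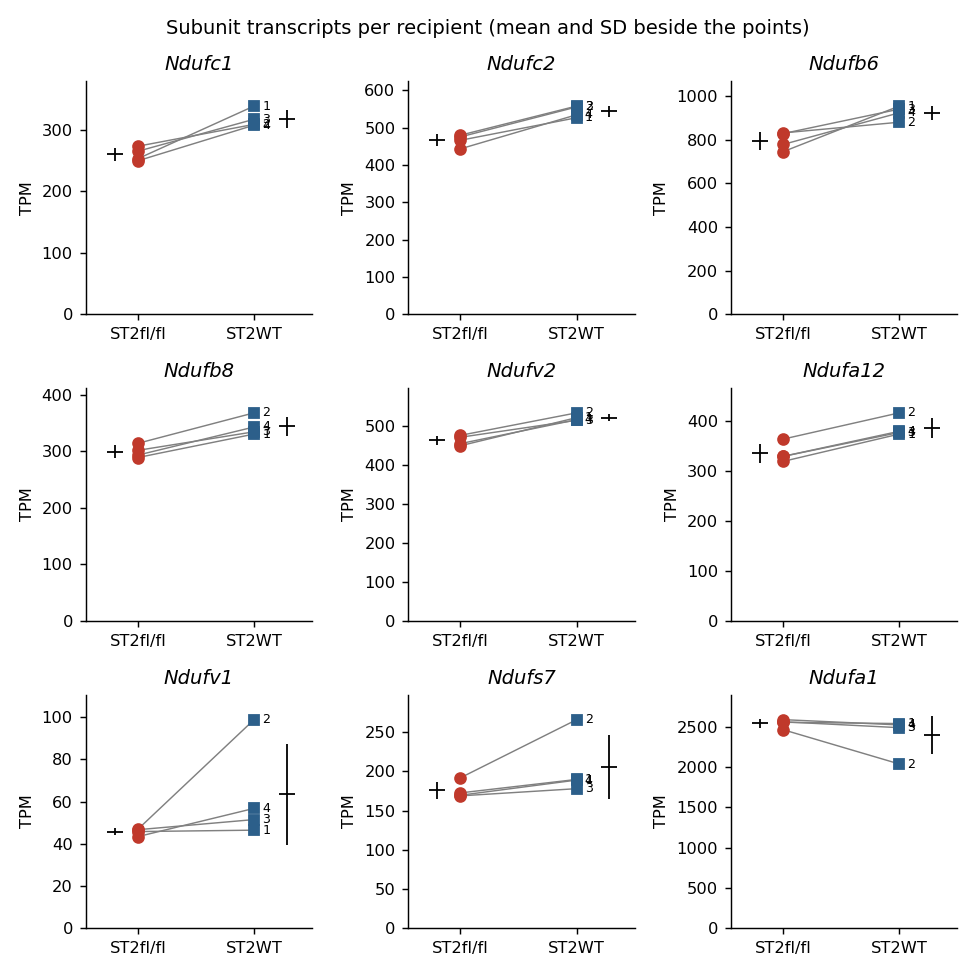
TPM of 9 members in each library, ST2fl/fl left and ST2WT right, with lines joining libraries of the same recipient number and the mean with SD beside the points; each axis starts at 0. *Ndufc1*, *Ndufc2*, *Ndufb6*, *Ndufb8*, *Ndufv2* and *Ndufa12* have no overlap between the genotypes, while at *Ndufv1* and *Ndufs7* 1 ST2WT library (98.9 and 266 TPM) lies far above the rest and at *Ndufa1* the same library lies below (2039 TPM).

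The catalytic core was lower by sign in 7 of 7 members (against 48.3% of all genes), with a median of -0.17 (-11.2%). Of the 7, 1 was lower at an unadjusted p under 0.05 in limma (14.3%, against 6.8% of all genes). The 30 accessory subunits had a median of -0.11 (-7.44%), with 23 lower (76.7%) and 7 higher by sign. At an unadjusted p under 0.05 in limma, 8 of them were lower (26.7%) and 0 higher. Whether the core differed from the accessory subunits was not tested. The core values leaned on the ST2WT library of recipient 2, in which the median deviation of the 7 core genes from their 8-library mean was 0.29, against 0.00 to 0.07 in the other ST2WT libraries and -0.17 to 0.02 in ST2fl/fl libraries. Without it the core median was -0.16, and 9 of the 37 members, 4 of them core, had a log2 fold change of the same sign and over 1.5 times smaller, while 5 accessory members that had been at or just above 0 turned negative.

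Of the 3 Ndufv subunits, 2 were lower and 1 higher by sign (66.7% lower, against 48.3% of all genes), with a median of -0.17. *Ndufv1* binds NADH and flavin and takes up the electrons, and it had 45.75, 46.8, 46.6 and 43.3 TPM in ST2fl/fl libraries, against 46.4, 98.9, 51.45 and 56.8 TPM in ST2WT libraries. The ST2WT library of recipient 2 alone lay far above the other 7, and of the remaining ST2WT values 1 lay within the ST2fl/fl range and 2 above it. The means were 45.6 ± 1.60 TPM in ST2fl/fl cells and 63.4 ± 24.1 TPM in ST2WT cells (SD, n = 4 each, limma log2 fold change -0.40, SE 0.20, adjusted p = 0.383; two-sided exact permutation p = 0.0857), and without that library the log2 fold change was -0.17 (SE 0.08, adjusted p = 0.318). *Ndufv2*, which holds an iron-sulfur cluster next to the flavin, had 450.2, 477, 472 and 456 TPM in ST2fl/fl libraries, against 522, 535, 516 and 517 TPM in ST2WT libraries. Here the groups did not overlap, with means of 464 ± 12.8 TPM in ST2fl/fl cells and 522.5 ± 8.64 TPM in ST2WT cells (SD, n = 4 each, limma log2 fold change -0.17, SE 0.06, adjusted p = 0.239, 95% interval -0.30 to -0.04), and the log2 fold change was -0.07 (adjusted p = 0.571) after quantile normalization. *Ndufv3*, an accessory subunit of the same module, had 229, 203, 220.2 and 222 TPM in ST2fl/fl libraries, against 221, 179, 232 and 233 TPM in ST2WT libraries and no stable direction (limma log2 fold change 0.02, SE 0.10, adjusted p = 0.927, 95% interval -0.19 to 0.23, and -0.06 without the ST2WT library of recipient 2).

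The 8 Ndufs subunits were all lower by sign (against 48.3% of all genes), with a median of -0.15 (-10.1%). At an unadjusted p under 0.05 in limma there were 0 of them, against 6.8% of all genes lower. *Ndufs1*, the largest subunit, carries several iron-sulfur clusters of the chain. It had 32.7, 38.03, 38 and 29.6 TPM in ST2fl/fl libraries, against 39.1, 45.8, 39.85 and 36.7 TPM in ST2WT libraries, and the ST2fl/fl value was the lower one in all 4 recipients while the groups overlapped (limma log2 fold change -0.22, SE 0.11, adjusted p = 0.407). *Ndufs7* holds the last iron-sulfur cluster of the chain and had 172.5, 192, 169 and 169.5 TPM in ST2fl/fl libraries, against 189.7, 266, 178 and 189 TPM in ST2WT libraries. The ST2WT library of recipient 2 was the highest, and the log2 fold change was -0.08 without it, against the value with all libraries (limma log2 fold change -0.21, SE 0.12, adjusted p = 0.449).

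*Ndufs3*, a core subunit of the ubiquinone-binding module, had 83.3, 90.6, 86.25 and 79.4 TPM in ST2fl/fl libraries, against 91.7, 118, 81.8 and 89.1 TPM in ST2WT libraries. The groups overlapped, and its log2 fold change of -0.15 (SE 0.11, limma adjusted p = 0.543) was -0.04 without the ST2WT library of recipient 2. *Ndufs8*, which carries a pair of iron-sulfur clusters, had 602, 640.0, 577 and 556 TPM in ST2fl/fl libraries, against 684, 740.5, 625 and 604 TPM in ST2WT libraries. Its ST2fl/fl value was the lower one in all 4 recipients, whereas the groups overlapped, and recipients 1 and 2 had higher levels than recipients 3 and 4 in both genotypes (limma log2 fold change -0.16, SE 0.08, adjusted p = 0.401; -0.10 without the ST2WT library of recipient 2). The accessory *Ndufs4*, *Ndufs5* and *Ndufs6* had log2 fold changes of -0.07, -0.10 and -0.09. Loss of *Ndufs4* is a widely used mouse model of Leigh syndrome.

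Of the 14 Ndufa subunits, 9 were lower and 5 higher by sign (64.3% lower, against 48.3% of all genes), with a median of -0.10 (-6.58%). *Ndufa12* is an accessory subunit of the matrix arm, and its assembly factor *Ndufaf2* is its paralog. It had 319, 364, 329 and 329.5 TPM in ST2fl/fl libraries, against 374, 417, 377 and 379.7 TPM in ST2WT libraries, so that the groups did not overlap although recipient 2 had the highest value in both genotypes. The means were 336 ± 19.5 TPM in ST2fl/fl cells and 387 ± 19.9 TPM in ST2WT cells (SD, n = 4 each, limma log2 fold change -0.21, SE 0.07, adjusted p = 0.250; two-sided exact permutation p = 0.0286). The pair differences of -0.23, -0.19, -0.20 and -0.20 were nearly equal in the 4 recipients. These limma and permutation values ignore the pairing, and with the recipient as a block limma gave an SE of 0.0547 and an adjusted p of 0.1105. *Ndufab1*, the mitochondrial acyl carrier protein, which also serves lipoic acid synthesis, had 57.6, 72.4, 62.1 and 59.2 TPM in ST2fl/fl libraries, against 77.15, 87.6, 74.2 and 70.1 TPM in ST2WT libraries. It was lower in ST2fl/fl cells of all 4 recipients, with 1 overlapping value (limma log2 fold change -0.30, SE 0.10, adjusted p = 0.259; two-sided exact permutation p = 0.0571).

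*Ndufa5*, of the ubiquinone-binding module, was the remaining member at an unadjusted p under 0.05 (260.2 to 316 TPM in ST2fl/fl libraries and 308 to 335 TPM in ST2WT libraries; limma log2 fold change -0.19, SE 0.08, adjusted p = 0.327). The libraries of recipient 2 went the other way there (0.04). *Ndufa9*, an accessory subunit of the same module that binds a nicotinamide nucleotide, had 129.6, 159, 136.5 and 130.3 TPM in ST2fl/fl libraries, against 148, 247, 154 and 142 TPM in ST2WT libraries. As at *Ndufv1*, the ST2WT library of recipient 2 lay far above all others, and the log2 fold change was -0.28 with all libraries and -0.09 without it. *Ndufa10* (-0.18 with that library and -0.10 without it), *Ndufa8* (-0.13), *Ndufa4* (-0.12) and *Ndufa11* (-0.08) were also lower by sign. The *Ndufa4* protein has since been assigned to cytochrome c oxidase, though the gene keeps its complex I name and is counted here among the accessory subunits.

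Against the majority, *Ndufa1* had 2558, 2466, 2564 and 2591 TPM in ST2fl/fl libraries, against 2542, 2039, 2491 and 2525 TPM in ST2WT libraries. The ST2fl/fl value was the higher one in all 4 recipients, but by 0.01 to 0.04 on the log2 scale outside recipient 2 and by 0.27 in it (limma log2 fold change 0.09, SE 0.07, adjusted p = 0.568, 95% interval -0.07 to 0.25; 0.01 without the ST2WT library of recipient 2). *Ndufa7* had 332, 344, 329.9 and 354 TPM in ST2fl/fl libraries, against 323, 297.5, 316 and 354 TPM in ST2WT libraries and was likewise higher by sign in all 4 (limma log2 fold change 0.08, SE 0.07, adjusted p = 0.631; 0.04 without that library). These were the only members higher by sign once that library was left out. *Ndufa3*, *Ndufa13* (also known as GRIM-19), *Ndufa2* and *Ndufa6* lay between -0.0015 and 0.02 in log2 fold change.

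By library, the summed TPM of the 37 members averaged 18020 ± 283 in ST2fl/fl libraries and 19010 ± 310 in ST2WT libraries (SD, n = 4 each; -5.21%, with no test). They took 1.78% to 1.85% of a library's TPM in ST2fl/fl cells and 1.86% to 1.93% in ST2WT cells, ranges that did not overlap. The median deviation of the members from their 8-library means was -0.09, -0.01, -0.08 and -0.09 in the ST2fl/fl libraries of recipients 1, 2, 3 and 4, against 0.05, 0.07, 0.04 and 0.06 in their ST2WT libraries. The ST2fl/fl library of recipient 2 thus lay nearest to the ST2WT libraries.

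**Figure D4:**
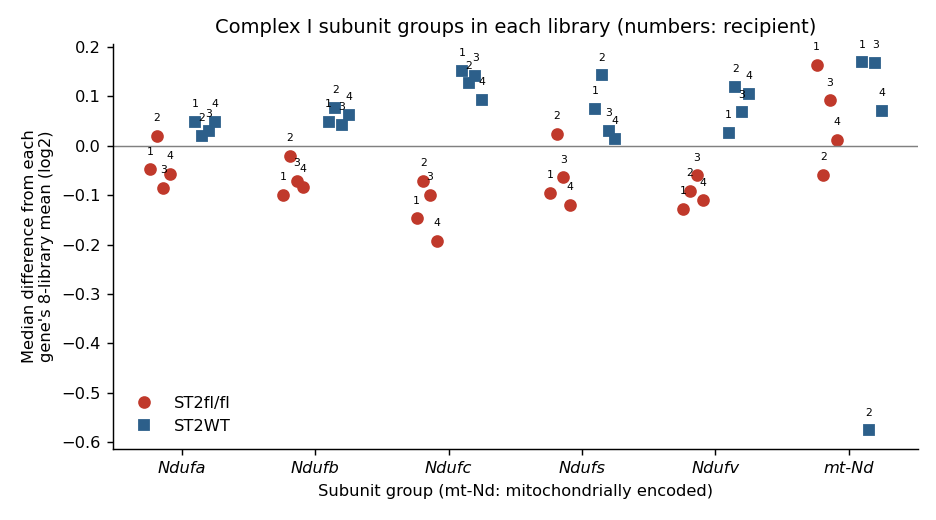
Median difference of each subunit group's genes from their 8-library mean on the log2 scale, 1 point per library, with ST2fl/fl left of ST2WT in each group and numbers for the recipient. In the nuclear groups Ndufb, Ndufc and Ndufv the ST2fl/fl points lie below the ST2WT points, whereas for the mitochondrially encoded subunits (mt-Nd) the ST2WT library of recipient 2 lies at -0.58 and the other 7 between -0.06 and 0.17.

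The mitochondrially encoded subunits of the membrane arm did not share the direction of the nuclear ones with all libraries included. Of 7, 1 was lower and 6 were higher by sign, the median was 0.06 and 0 had an unadjusted p under 0.05 in either direction. The most different was *mt-Nd4*, a proton-pumping subunit, with 4156, 3608, 4275 and 3892 TPM in ST2fl/fl libraries, against 3741, 2102, 4107 and 4040 TPM in ST2WT libraries. The libraries of recipient 2 differed by 0.78 on the log2 scale and those of the other recipients by -0.05 to 0.15 (limma log2 fold change 0.23, SE 0.18, adjusted p = 0.558), and without the ST2WT library of recipient 2 *mt-Nd4* was at 0.01, 6 of the 7 were lower by sign and their median was -0.09. *mt-Nd1*, which forms the entry of the ubiquinone channel, had 9136, 9137, 9716 and 9189 TPM in ST2fl/fl libraries, against 9402, 6830, 10280 and 9713 TPM in ST2WT libraries (limma log2 fold change 0.05, SE 0.11, adjusted p = 0.834; -0.08 without that library), and log2 fold changes were 0.04 for *mt-Nd2*, 0.06 for *mt-Nd3*, -0.01 for *mt-Nd4l*, 0.12 for *mt-Nd5* and 0.16 for *mt-Nd6*. The ratio of summed mitochondrially encoded to summed nuclear subunit TPM was 1.15 to 1.33 in ST2fl/fl libraries and 1.21 to 1.30 in ST2WT libraries other than that of recipient 2, where it was 0.793.

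Of 18 listed assembly factors, which build the complex and are not part of it, 15 were tested, and *Ndufaf8*, *Dmac1* and *Dmac2* were not. No factor passed the limits, 13 were lower and 2 higher by sign (86.7% lower, against 48.3% of all genes), and the median was -0.13. *Ndufaf2* had 84.6, 75.2, 78.6 and 69.5 TPM in ST2fl/fl libraries, against 88.6, 93.7, 95.7 and 91.6 TPM in ST2WT libraries. The groups did not overlap, and the value was lower than in the partner library in all 4 recipients (limma log2 fold change -0.26, SE 0.09, adjusted p = 0.227), as for its paralog *Ndufa12*. *Ndufaf6*, needed for the early membrane module, had 26.9, 35.4, 30.03 and 26.7 TPM in ST2fl/fl libraries, against 37, 49.7, 36.9 and 35.3 TPM in ST2WT libraries (limma log2 fold change -0.40, SE 0.13, adjusted p = 0.239; -0.29 without the ST2WT library of recipient 2), and *Foxred1*, an oxidoreductase-like factor, averaged 6.40 ± 0.853 TPM in ST2fl/fl cells and 8.67 ± 2.70 TPM in ST2WT cells (SD, n = 4 each, limma log2 fold change -0.35, SE 0.19, adjusted p = 0.418; -0.19 without that library). Without that library, 10 of 15 were lower by sign and the median was -0.06.

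A like difference was present in other nuclear genes of the respiratory chain. Of 39 nuclear subunits of complexes II, III and IV and ATP synthase, 34 were lower and 5 higher by sign. That is 87.2% lower, against 48.3% of all genes, with a median of -0.12. Of the 39, 12 (30.8%) were lower at an unadjusted p under 0.05, against 6.8% of all genes, and 0 passed the limits. Without the ST2WT library of recipient 2, 22 of the 39 were lower at an unadjusted p under 0.05 (against 7.71% of all genes) and 3 at an adjusted one (against 1%). Complex I was not tested against them. The medians were -0.19 for complex II (4 genes), -0.15 for complex III (9 genes), -0.07 for complex IV (11 genes) and -0.14 for ATP synthase (15 genes), with complex II at -0.09 without the ST2WT library of recipient 2, and the smallest adjusted p among them was 0.144 (*Cox5a*, at 1867 ± 70.2 TPM in ST2fl/fl cells and 2198 ± 155 TPM in ST2WT cells). Of 14 listed regulators of respiratory chain genes, 12 were tested (*Ppargc1a* and *Ppargc1b* were not), with a median of 0.00 and 0 at an unadjusted p under 0.05 in either direction. Among them *Yy1*, whose motif core was searched for above, had 52.2, 45.7, 53.35 and 47.6 TPM in ST2fl/fl libraries, against 50.3, 19.6, 43.4 and 44.7 TPM in ST2WT libraries, where the ST2WT library of recipient 2 was again the one apart (limma log2 fold change 0.40, SE 0.24, adjusted p = 0.465; 0.11 without that library).

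Transcript length is a property that the choice of members did not use. It was taken from 1 annotated transcript per gene, which need not be the one expressed or the length behind the TPM. The longest, of *Ndufb2*, has 4371 bases with 315 of them coding. Over the 37 members, longer transcripts had the more negative log2 fold changes (Spearman's rho = -0.484, and -0.349 without the ST2WT library of recipient 2, given as a description since the genes share their libraries). The GC content of the transcript had rho = 0.28 with the log2 fold change, and 0.428 without that library, so that members richer in GC had the less negative values. Transcript length also followed that library, whose difference from the other 3 ST2WT libraries had rho = 0.443 with length and -0.541 with mean TPM. In the 18 longest members (908 to 4371 bases, with all 7 core subunits) the median difference of that library was 0.09, and the median log2 fold change was -0.17 with it and -0.10 without it. In the 19 shortest members (351 to 875 bases) that library's median difference was -0.07, and the medians were -0.10 with it and -0.11 without it. Length and the level of this library therefore moved together with the fold change, and their part in it was not tested. The ST2WT mean in the fold change includes this library. By arithmetic, a length trend in this library thus enters the fold change with the opposite sign. All tested genes of the same length ranges had medians of -0.02 (6508 genes, the longer range) and -0.06 (522 genes, the shorter range).

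**Figure D5:**
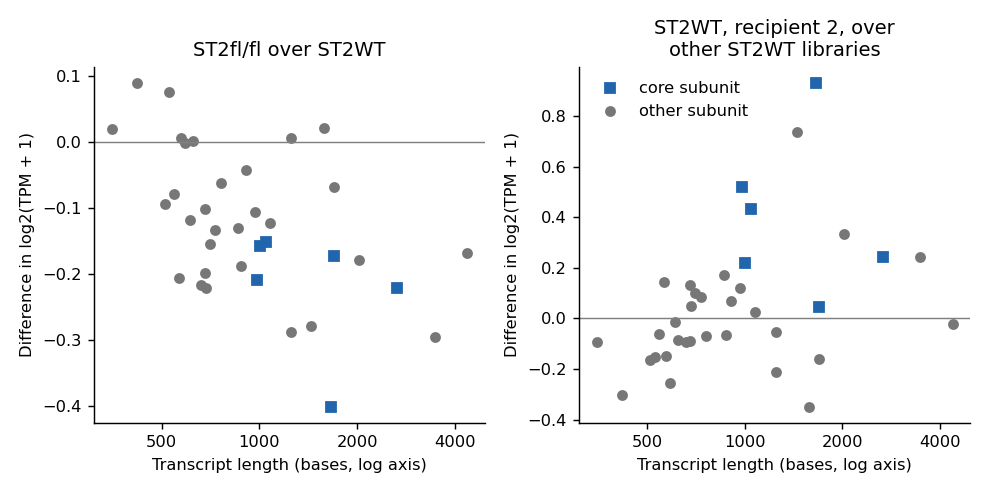
Left, log2 fold change (ST2fl/fl over ST2WT) of 36 of the 37 members against the length of the transcript on a log axis; right, the difference in log2(TPM + 1) between the ST2WT library of recipient 2 and the mean of the other 3 ST2WT libraries against the same length. Longer members lie lower on the left (rho = -0.484 over all 37) and higher on the right (rho = 0.443 over all 37).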

How the data were processed

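The authors sorted the cells into SmartSeq low-input lysis buffer, made Nextera XT libraries, sequenced them on a NextSeq 500 and aligned the reads to GRCm38.p6 in CLC Genomics Workbench 20.0.3. The deposited values are TPM, scaled within each library by the authors. Their own test used reads assigned to genes, which TPM do not hold, so depth is unknown and no count model was fitted. The counter's use of strand is not given in the sources used here. The comparison used 8 libraries; libraries from syngeneic recipients were not analysed here.

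The 10238 of 12417 entries that averaged 1 TPM or more were tested in limma 3.58.1 (R 4.3.3) after a log2(TPM + 1) transform, with variances that follow a trend and Benjamini-Hochberg adjustment over all genes tested. The main fit held the genotype alone, so its SEs and adjusted p-values ignore the pairing by recipient except where the block is named. The pseudocount lowers the fold changes of weakly expressed genes. A gene passed at an adjusted p under 0.05 and a change over 1.5-fold. Fold changes are ST2fl/fl over ST2WT, and errors beside means are SDs. Exact permutation tests were two-sided over 70 labelings. Nothing in the labels gives separate animals other than the replicate number.

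The members and lists were chosen with earlier results of these data known. Values per library are given for the nuclear core subunits, the 2 members with the smallest p in each subunit group, the 2 highest and 2 lowest by mean TPM and up to 3 against the majority direction, and of the other lists for those with the smallest p. *Ndufa9*, *Ndufb2*, *Ndufa5*, *Ndufa10* and *Yy1* were described after their values were seen. For 1 member, values of its own are not reported here; it is counted in all totals over members. The deviations of same-numbered libraries from the means of their genotype correlated at 0.195, 0.352, 0.118 and 0.163, against -0.283 to 0.109 between different numbers, so the number was taken to mark the recipient. The pairing rests on cotransfer into each recipient.

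As alternatives the pseudocount, the filter, the scaling, the variance trend and the library weights were changed, the replicate block was added, and each library or recipient was left out. GENCODE M21 (GRCm38) gave positions, lengths and overlaps. It holds 1 gene for each of the 37 symbols, and exons of 16 of them overlap another gene. Lengths are those of the protein-coding transcript with the longest coding sequence, and among equals of the longest transcript. Scripts were tested on simulated data. Figures used matplotlib 3.10.9.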

Additional observations from a re-analysis of the deposited data

Results flagged for a closer look

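Each group of 4 libraries was checked for a value far from the other 3, by Dixon's ratio of that gap to the range of the group. Of 88 groups of 4 (the 37 members and the 7 mitochondrially encoded subunits in each genotype), 10 had such a value, and chance gives about 1 in 20 groups. The ST2WT library of recipient 2 held 6 of the 10, with 3 high and 3 low. It was high at *Ndufa9* (247.4 TPM, with the other ST2WT libraries at 141.9 to 153.9 TPM), *Ndufs7* (266.1 TPM, others 177.9 to 189.7 TPM) and *Ndufa12* (416.6 TPM, others 374.2 to 379.7 TPM). It was low at *Ndufa1* (2039 TPM, others 2491 to 2542 TPM), *Ndufa2* (1056 TPM, others 1166 to 1177 TPM) and *Ndufa6* (839.4 TPM, others 988 to 1011 TPM).

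The ST2fl/fl library of recipient 2 was high at *Ndufs7* (191.8 TPM, with the other ST2fl/fl libraries at 168.7 to 172.5 TPM) and at *Ndufb10* (333 TPM, others 316.5 to 318.1 TPM). *Ndufs7* was thus high in both libraries of that recipient. The ST2fl/fl library of recipient 1 was low at *Ndufa11* (222.3 TPM, others 238.2 to 240.8 TPM), and that of recipient 3 was high at *mt-Nd1* (9716 TPM, others 9136 to 9189 TPM).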

How the results depend on the processing

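With 8 libraries, 25 genes passed as lower and 28 as higher in ST2fl/fl cells, and 0 of 37 subunits passed in either direction, also under every alternative run. The lower and higher counts over all genes were 38 and 57 with the replicate block and 56 and 74 with array weights, and 13 and 15 were lower with a pseudocount of 5 and with a mean of at least 5 TPM. Leaving out 1 library or 1 recipient gave 5 to 46 lower and 4 to 65 higher genes. Subunits at an adjusted p under 0.05 (0 in all 8 libraries) were 3 with array weights and 0 to 6 with a library or recipient left out, all lower. Of all genes, 0.273% were lower at an adjusted p under 0.05 in limma with all libraries. Without the ST2WT library of recipient 2 it was 1%, and the shares under the other alternatives are not given here. Subunits at an unadjusted p under 0.05 (9 lower) were 15 with the replicate block (10.3% of all genes), 16 with array weights (9.34%) and 3 to 19 with a library or recipient left out, the fewest without recipient 1 (3.43%) and the most without recipient 2 (9.26%), against 6.8% of all genes with all libraries. Subunits with groups that did not overlap were 3 below after quantile normalization (4.62% of all genes). With a library or recipient left out they were 9 to 23 below and 0 to 1 above. The share of all genes below also rose there, to between 5.58% and 11.2%, against 4.58% with all libraries. Leaving out recipient 2 and blocking on the recipient, chosen after seeing the data, gave 42 lower and 75 higher genes, 5 subunits at an adjusted and 23 at an unadjusted p under 0.05 (10.9% of all genes), 23 below (11.2% of all genes) and 1 above without overlap, and *Ndufv3* at -0.0303. Quantile normalization moved the median log2 fold change to -0.0709 over all members, -0.0172 for Ndufa, -0.0662 for Ndufb, -0.1596 for Ndufc, -0.0825 for Ndufs and -0.0709 for Ndufv, all still below 0; the cause was not tested. The median of the members was -0.1621 to -0.0709 over all alternatives, with 26 to 35 members lower, while that of all genes stayed between -0.0071 and 0.0276. Of 391 values of the 17 subunits given in full, 386 kept their direction and side of the threshold, and the 5 that turned were all of *Ndufv3*, at -0.0399 with array weights and -0.0646 to 0.0611 with a library or recipient left out. That threshold includes the limit of 1.5-fold, which 0 subunits passed in any fit, so this count follows direction alone. A subunit that crossed an adjusted p of 0.05 still counts as kept, such as *Ndufc1* with array weights (limma adjusted p = 0.0109). TPM carry no depth, so precision rests on the spread between 4 libraries a genotype.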
